A study of Homo sapiens with 4 samples.

Results

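The last steps of cell division were followed through the mRNAs of 10 genes, RACGAP1, ECT2, ANLN, PRC1, CEP55, CIT, AURKB, BIRC5, INCENP and CDCA8. The genes were looked up by symbol from tables of 61852 genes, and all 10 were found and passed the filter on low counts, which left 15965 genes. H1299 is a widely used cell line from a human non-small-cell lung carcinoma, and the labels give it as p53-/-. In 2 libraries the cells expressed CASM34, a p53 mutant that the series title places among synonymous mutations found in cancer, and in 2 they expressed wild-type p53 (p53WT). Every library thus comes from the same p53-/- line. The labels name no DNA-damaging treatment, and they do not say how p53 was delivered or whether the 2 libraries of a group are separate cultures. The p53 transcript itself and cells without p53 were not analysed here. The 10 genes were selected on the expression values of these same 4 libraries, known when they were named, so their differences, and the counts of calls among them, are given below as a description and support nothing by themselves.

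Cytokinesis begins at anaphase, when microtubules between the separating chromosomes are bundled into a central spindle and a ring of actin and myosin tightens around the cell's middle. The chromosomal passenger complex is the Aurora B kinase with its partners survivin, borealin and INCENP. It corrects wrong attachments of chromosomes, moves to the central spindle at anaphase and licenses the final cut. Genes of these machines are transcribed mostly in G2 and mitosis. In G1 and after p53 activation they are held down by the DREAM complex, which contacts a promoter element called CHR (cell cycle genes homology region). CCAAT boxes, bound by the factor NF-Y, often lie close by.

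Promoter sequences from RefSeq (GRCh38.p14) were at hand for 8 of the 10 genes, all but RACGAP1 and BIRC5, as windows from 250 bases before to 50 bases after an annotated start. The CHR was searched as TTTGAA or TTCGAA and the CCAAT box as CCAAT, each on both strands. A CHR was present in 7 of the 8 genes, against 19.5% of 27305 genes with such a window, and a CCAAT box in 7 of the 8, against 39.7%. Both were present in 6 of the 8, against 7.85%. The stretches below show where these letters sit. Each runs over the 120 bases from -120 to -1, the base before the start, except that of CIT, which runs from -250 to -131. Capitals mark a CHR or CCAAT match, and in CDCA8, CIT and ANLN adjoining or overlapping matches form a longer run.

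ECT2: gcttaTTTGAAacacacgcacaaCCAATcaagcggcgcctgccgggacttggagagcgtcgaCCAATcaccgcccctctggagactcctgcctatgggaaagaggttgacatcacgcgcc
ANLN: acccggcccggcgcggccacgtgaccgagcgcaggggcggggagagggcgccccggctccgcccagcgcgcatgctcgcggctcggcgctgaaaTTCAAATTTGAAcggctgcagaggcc
CIT: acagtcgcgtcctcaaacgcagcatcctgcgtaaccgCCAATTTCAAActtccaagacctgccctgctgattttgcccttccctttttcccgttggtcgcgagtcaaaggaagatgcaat
PRC1: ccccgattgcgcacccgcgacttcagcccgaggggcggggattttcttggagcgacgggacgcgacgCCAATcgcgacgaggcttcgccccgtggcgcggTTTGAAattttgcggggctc
CEP55: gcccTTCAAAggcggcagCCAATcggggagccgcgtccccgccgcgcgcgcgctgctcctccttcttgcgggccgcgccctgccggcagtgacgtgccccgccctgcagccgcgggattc
INCENP: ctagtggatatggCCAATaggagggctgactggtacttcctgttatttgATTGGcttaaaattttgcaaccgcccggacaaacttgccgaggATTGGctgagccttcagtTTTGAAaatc
CDCA8: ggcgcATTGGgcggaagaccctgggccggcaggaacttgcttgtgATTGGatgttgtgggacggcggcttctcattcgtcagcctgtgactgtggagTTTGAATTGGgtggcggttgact

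The stretches lie at chr3:172750606-172750725 (ECT2, plus strand), chr7:36389742-36389861 (ANLN, plus), chr12:119877451-119877570 (CIT, minus), chr15:90994536-90994655 (PRC1, minus), chr10:93496492-93496611 (CEP55, plus), chr11:62123891-62124010 (INCENP, plus) and chr1:37692396-37692515 (CDCA8, plus). A CHR began within 30 bases of the start in ANLN (-26 and -20), CDCA8 (-23), PRC1 (-20) and INCENP (-10). The PRC1 start used here lies inside the gene, whose outer end on the minus strand is 90995629 in GENCODE 29. In ECT2 a CHR began at -115 (at -242 and -182 in a second window), in CEP55 at -116 and in CIT at -208. CEP55 held another copy from -3 that runs across the start, and ECT2 and CIT held one downstream of it. ANLN had no CCAAT box in its window. AURKB had a CCAAT box and no CHR in its pair of windows, which begin at starts inside the gene's outermost RefSeq end, so that the absence says only that these letters are not there.

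The libraries held 26906095 and 18086983 counts in CASM34 and 21717726 and 25969760 counts in p53WT. The keratin genes KRT8 and KRT18 and the vimentin gene VIM were abundant in all 4 (501 to 4484 CPM, read counts scaled to library size with TMM). The other epithelial markers KRT19, EPCAM and CDH1 and 4 markers of the lung lineage were at most 0.658 CPM, so the defining markers of lung epithelium were near 0. Of the markers of other cell types, 5 for leukocytes and 3 for endothelium were at most 0.861 CPM, and 3 for fibroblasts at most 2.79 CPM. Genes of the mitochondrial genome made up 1.81% and 1.45% of CASM34 counts, against 1.44% and 1.09% of p53WT counts, and their part in the values below was not tested.

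The 10 mRNAs were on the whole slightly less abundant with CASM34 than with p53WT. The median of their log2 fold changes was -0.15, and the range ran from -0.25 to 0.02. Over all 15965 genes tested the median was -0.001. In 9 of the 10 the fitted fold change lay below 0, as it did in 50.2% of all genes, and in 8 of the 10 both CASM34 libraries lay below both p53WT libraries, as in 23.4% of all genes (24.5% lay above). The sum over the 10 was 1451 and 1438 CPM in CASM34 libraries, against 1584 and 1615 CPM in p53WT libraries. By edgeR at a Benjamini-Hochberg adjusted p under 0.05, 3 of the 10 were called lower (RACGAP1, CEP55 and ECT2) and 0 higher. Of all genes tested, 0.345% were called lower and 1.61% higher, 1.95% together. Since this contrast was known when the genes were named, nothing is read from that share. In bulk RNA, fewer cells in mitosis and less RNA per dividing cell cannot be told apart.

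Without p53WT replicate 1 edgeR called 0 of the 10 genes, where 0.0833% of all genes were called lower. In that fit 6 of the 10 and 12.2% of all genes had an unadjusted p under 0.05. Without p53WT replicate 2 it also called 0 of the 10, where 0.122% of all genes were called lower, and 5 of the 10 and 12.6% of all genes had an unadjusted p under 0.05. The median was -0.18 without p53WT replicate 1 and -0.12 without p53WT replicate 2. Counts of the 10 genes ran from 1213 to 7327 per library, which correspond to a counting error of 2.87% to 1.17%.

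**Figure D1:**
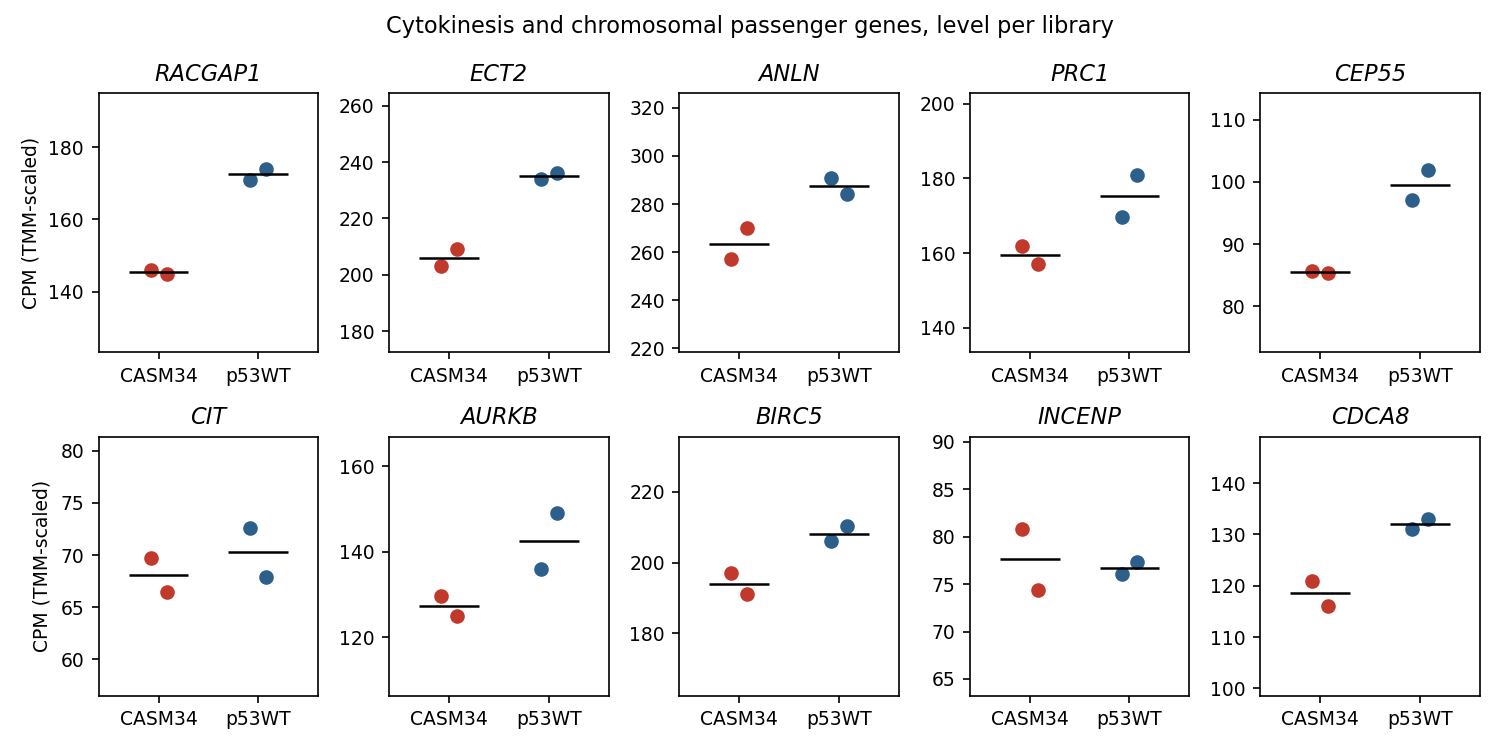
Level of each of the 10 genes in CPM (counts scaled to library size with TMM; the axes do not start at 0), with a point for each library and a bar at the mean of the 2 libraries of CASM34 and of p53WT. RACGAP1 lies at 146 and 145 CPM in CASM34 libraries and at 171 and 174 CPM in p53WT libraries, while the groups overlap for CIT and INCENP.

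RACGAP1 and ECT2, which act together at the central spindle, had a median log2 fold change of -0.22, against -0.08 for ANLN and CIT and -0.13 for the chromosomal passenger genes. With the GC and length offset described below these medians were -0.17, -0.08 and -0.15. RACGAP1 (ENSG00000161800.13, GENCODE 29 on GRCh38, chromosome 12, 49976923 to 50033136, minus strand) encodes a GTPase-activating protein that pairs with the kinesin KIF23 to form centralspindlin. It had 146 and 145 CPM in CASM34 libraries, against 171 and 174 CPM in p53WT libraries. The means were 145 ± 0.722 and 173 ± 1.97 CPM (SD, n = 2 each), and the log2 fold change was -0.25 (SE 0.04), which is -15.9%. An SD from 2 libraries is a poor measure of spread, and the gene was chosen with these values known. On the TPM scale, which divides by transcript length, it had 87.8 and 80.4 TPM in CASM34 libraries and 106 and 104 TPM in p53WT libraries. Its effective length, the usable length of its isoforms averaged by their abundance, was 1958 and 2132 bases in CASM34 and 1942 and 1976 bases in p53WT. CASM34 replicate 2 thus stood apart, and with an effective length offset the log2 fold change of RACGAP1 was -0.32.

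ECT2 (ENSG00000114346.14, chromosome 3, 172750682 to 172821474, plus strand) encodes the exchange factor that RACGAP1 recruits to switch on RhoA at the equator. It had 203 and 209 CPM in CASM34 libraries, against 234 and 236 CPM in p53WT libraries. Both CASM34 values lay below both p53WT values, with a log2 fold change of -0.19 (SE 0.04), which is -12.5%. Its CHR lies at the start of the stretch printed above.

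Among genes of the contractile ring the values were closer together. ANLN (ENSG00000011426.11, chromosome 7, 36389806 to 36453791, plus strand) encodes anillin, a scaffold that ties actin, myosin, septins and RhoA together at the furrow. It had 257 and 269.9 CPM in CASM34 libraries, against 291 and 284 CPM in p53WT libraries, with no overlap and a log2 fold change of -0.13 (SE 0.05). CIT (ENSG00000122966.17, chromosome 12, 119685790 to 119877291, minus strand) encodes citron kinase, which stabilises the midbody. It had 69.7 and 66.5 CPM in CASM34 libraries, against 72.6 and 67.9 CPM in p53WT libraries. The groups of CIT overlapped and its log2 fold change was -0.04 (SE 0.05), so the difference was within the spread between libraries.

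PRC1 (ENSG00000198901.14, chromosome 15, 90966038 to 90995629, minus strand) encodes the protein that crosslinks antiparallel microtubules of the central spindle. It had 162 and 157 CPM in CASM34 libraries, against 169.6 and 181 CPM in p53WT libraries, with a log2 fold change of -0.14 (SE 0.05). Without p53WT replicate 2 it was -0.09, and in limma on log2(TPM + 1) it was -0.08. Its counts were fractional in all 4 libraries, and it shares 3181 exonic bases with another gene model on the same strand (AC068831.7). That model took 326.87 and 162.96 counts in CASM34 and 236.76 and 254.89 counts in p53WT, so the level of PRC1 is uncertain by the way RSEM divides reads. PRC1 also overlaps the antisense gene PRC1-AS1, and the strand setting of the counting is not given in the sources used here. Smaller exon overlaps with genes on the other strand exist for RACGAP1 (AQP6, 137 bases), ANLN (KIAA0895, 78 bases) and CIT (AC002563.1, 81 bases).

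CEP55 (ENSG00000138180.16, chromosome 10, 93496632 to 93529092, plus strand) encodes the midbody protein that brings in the ESCRT machinery for abscission. It had 85.7 and 85.4 CPM in CASM34 libraries, against 97.1 and 102 CPM in p53WT libraries. The CASM34 libraries were nearly equal and both lay below p53WT, with a log2 fold change of -0.22 (SE 0.05), which is -14.3%. The effective length of CEP55 ranged from 2331 to 2354 bases over the 4 libraries, so its fold was almost unaltered by dividing by length (-0.21 in limma on log2(TPM + 1)).

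**Figure D2:**
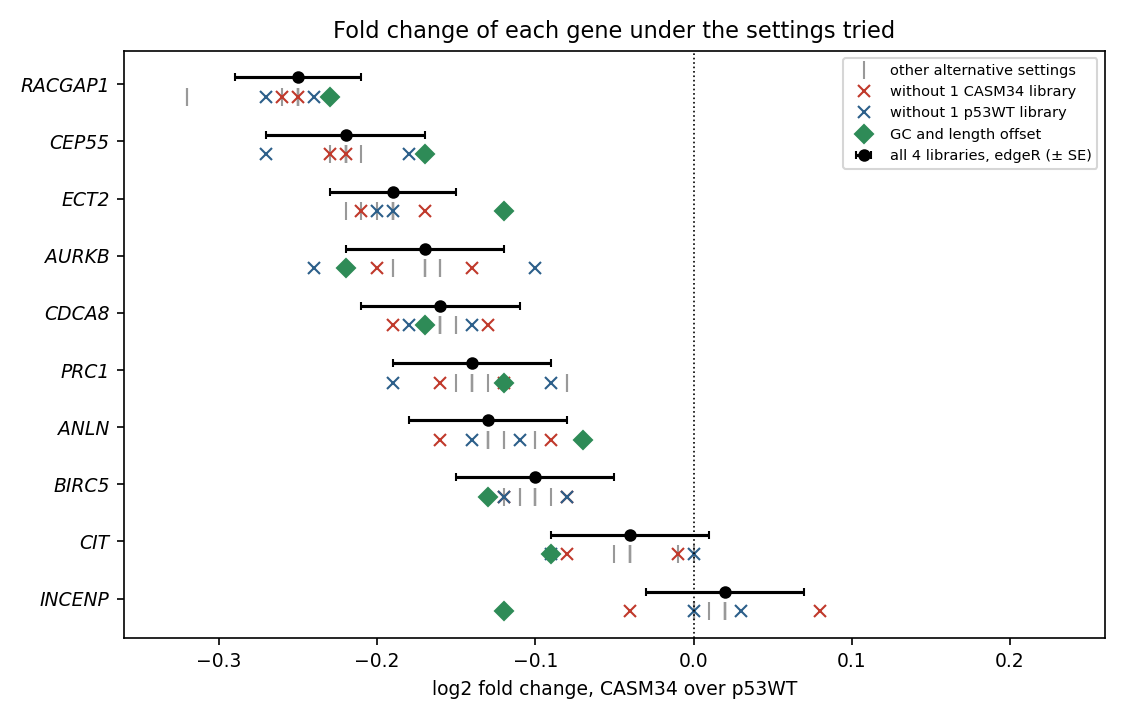
Log2 fold change (CASM34 over p53WT) of each of the 10 genes from the edgeR fit on all 4 libraries (black, bars ± 1 SE), with the values without 1 CASM34 library (red crosses), without 1 p53WT library (blue crosses), with a GC and length offset (green) and in the other settings (grey). RACGAP1 lies between -0.32 and -0.23 in all of them, while INCENP lies between -0.12 and 0.08.

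Of the 4 chromosomal passenger genes, 3 had lower values in CASM34 and the scaffold gene INCENP did not. AURKB (ENSG00000178999.13, chromosome 17, 8204733 to 8210600, minus strand), the kinase, had 129.7 and 125 CPM in CASM34 libraries, against 136 and 149 CPM in p53WT libraries. The groups did not overlap, but the p53WT libraries were farther apart than those of CASM34, and the log2 fold change was -0.17 (SE 0.05), from -0.10 without p53WT replicate 2 to -0.24 without p53WT replicate 1. CDCA8 (ENSG00000134690.11, chromosome 1, 37692418 to 37709719, plus strand) encodes borealin, which binds nucleosomes together with survivin. It had 121 and 116 CPM in CASM34 libraries, against 131 and 133 CPM in p53WT libraries, with a log2 fold change of -0.16 (SE 0.05).

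BIRC5 (ENSG00000089685.15, chromosome 17, 78214186 to 78225636, plus strand) encodes survivin, which reads the phosphorylated histone mark that docks the complex at centromeres and is also a member of the inhibitor of apoptosis family. It had 197 and 191 CPM in CASM34 libraries, against 206 and 210.3 CPM in p53WT libraries, with no overlap and a log2 fold change of -0.10 (SE 0.05). INCENP (ENSG00000149503.13, chromosome 11, 62123973 to 62153163, plus strand) binds and activates Aurora B and holds the complex together. It had 80.8 and 74.4 CPM in CASM34 libraries, against 76.1 and 77.3 CPM in p53WT libraries. The p53WT values of INCENP lay between those of CASM34, and its log2 fold change was 0.02 (SE 0.05).

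Per length, the 4 passenger mRNAs were far from equal. AURKB was the most abundant, at 186 and 177 TPM in CASM34 and 199 and 215 TPM in p53WT, followed by BIRC5, at 112 and 105 TPM in CASM34 and 116 and 119 TPM in p53WT. CDCA8 had 69.1 and 66.6 TPM in CASM34 and 76.1 TPM in each p53WT library, and INCENP was lowest, at 27.7 and 28.0 TPM in CASM34 and 27.6 and 28.0 TPM in p53WT. This order was the same in every library. The ratio of AURKB to INCENP was 6.72 and 6.31 in CASM34 and 7.22 and 7.67 in p53WT. The ratio of CDCA8 to INCENP was 2.50 and 2.38 in CASM34 and 2.76 and 2.72 in p53WT. INCENP thus made up 7.01% and 7.43% of the passenger TPM in CASM34, against 6.58% and 6.40% in p53WT. Its share was higher in both CASM34 libraries, while its own TPM hardly varied. That TPM rests on effective lengths of 3447 and 3149 bases in CASM34, where INCENP had 80.8 and 74.4 CPM. These shares take no account of GC content. With the GC and length offset described below, INCENP lay at -0.12, BIRC5 at -0.13, CDCA8 at -0.17 and AURKB at -0.22 (log2 fold changes). Of the other genes PRC1 and RACGAP1 were the most abundant per length, with PRC1 at 98.6 and 102 TPM in CASM34 and 103 and 109 TPM in p53WT. ECT2 had 73.5 and 72.8 TPM in CASM34 and 83.8 and 86.0 TPM in p53WT, and ANLN 74.6 and 77.0 TPM in CASM34 and 81.2 and 80.9 TPM in p53WT. CIT was the lowest of the 10 per length, at 12.4 and 11.8 TPM in CASM34 and 13.0 and 11.3 TPM in p53WT.

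**Figure D3:**
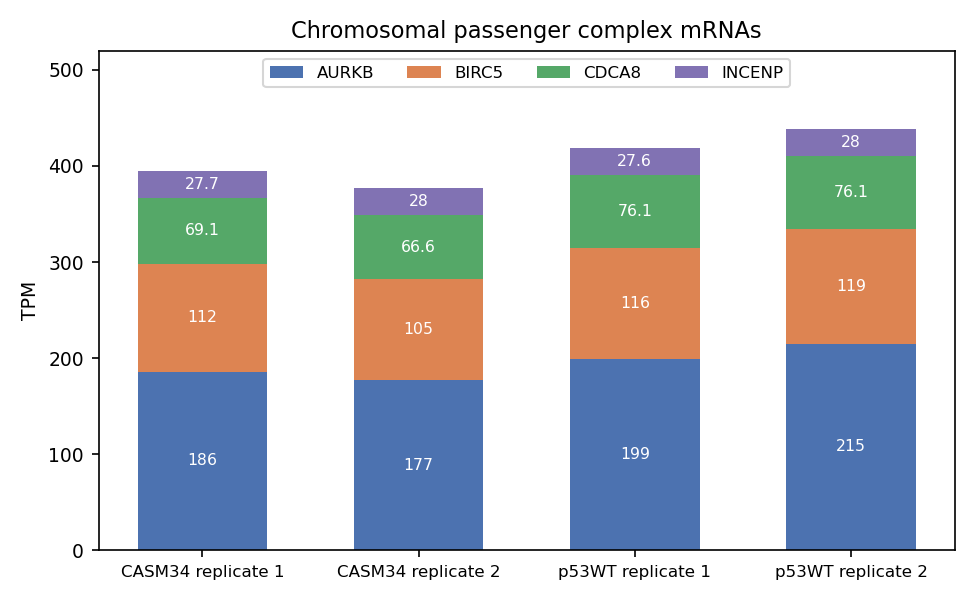
Stacked TPM of the 4 chromosomal passenger mRNAs in each library, CASM34 replicates at the left. The sum is 395 and 376 TPM in CASM34 libraries and 419 and 437 TPM in p53WT libraries, while the INCENP segment stays between 27.6 and 28.0 TPM.

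Among the 10 genes, those with GC-poor transcripts had the lower fold changes, with exceptions. GC content ran from 38.1% in ECT2 to 59.3% in INCENP. Across the 10 genes, which share the same 4 libraries, its correlation with the log2 fold change was 0.62 (Pearson) and 0.58 (Spearman). Over 15664 tested genes with a GC value the correlations were 0.30 and 0.47. Per 10 percentage points of GC content, log2 levels relative to the mean of the 4 libraries changed by 0.0735 and 0.0399 in CASM34 libraries, against -0.0585 and -0.0549 in p53WT libraries, so this library property moved with the groups, and whether it comes from the cells or from library preparation was not tested. With each library's dependence on GC content and length taken out through an offset, all 10 genes lay below 0, between -0.23 and -0.07, with a median of -0.12 (all genes: -0.019). Of all 15664 genes in that fit, 8856 lay below 0. INCENP lay at -0.12 and CIT at -0.09 with the offset, while ECT2 lay at -0.12 and ANLN at -0.07. RACGAP1 and AURKB, at -0.23 and -0.22, were then the 2 genes called lower, where 0.306% of all genes were, and ECT2 and CEP55 were no longer called.

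**Figure D4:**
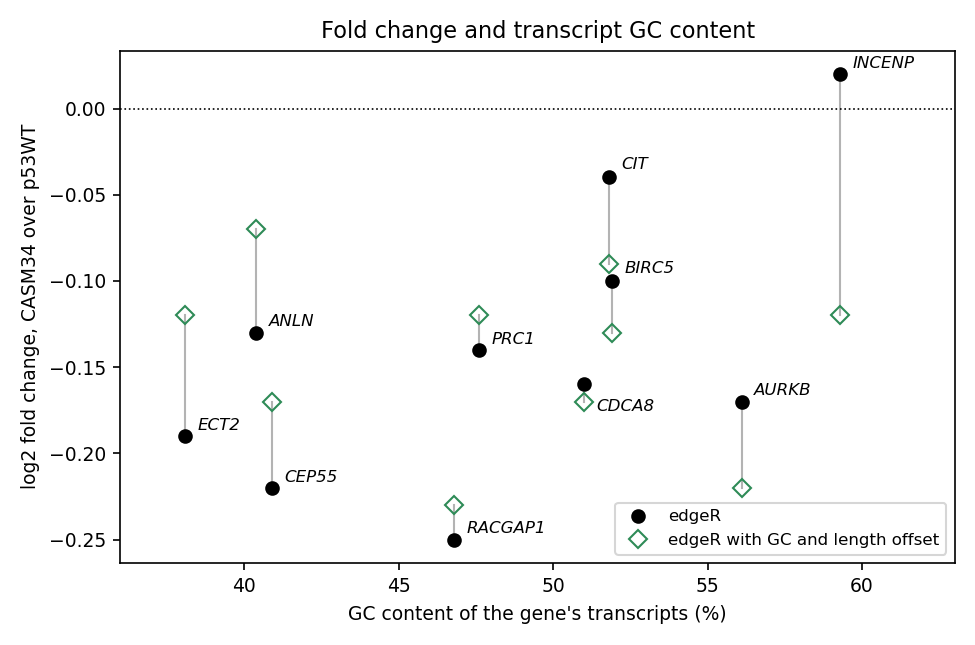
Log2 fold change (CASM34 over p53WT) of each of the 10 genes against the GC content of its transcripts in percent, from edgeR (black points) and from edgeR with a GC and length offset (green diamonds), joined by a line per gene. INCENP, at 59.3% GC, lies at 0.02 without the offset and at -0.12 with it, and RACGAP1 lies at -0.25 and -0.23.

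Other genes of the same processes were taken in 8 lists by role, 128 genes in all, of which 126 were tested. By edgeR 7 fell and 1 rose in CASM34, against 0.345% and 1.61% of all genes tested, and 103 of the 126 lay below 0. The median log2 fold change was -0.09. In that fit 48 of the 126 and 17.1% of all genes had an unadjusted p under 0.05. Of the 126 genes 44 had it and lay below 0, as did 1088 of all 15965. Counts of unadjusted p in single lists below are to be set beside these shares. Medians, and values given below beside an SE or adjusted p, are log2 fold changes. AURKC and BIRC7 were too low to test.

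Among 11 genes of the central spindle and midbody, 1 fell and the median was -0.11, or -0.06 with the GC and length offset. KIF4A, the kinesin that PRC1 brings to microtubule ends to set the length of the central spindle, had 124 and 126 CPM in CASM34 libraries, against 150.5 and 140 CPM in p53WT libraries (-0.21, SE 0.05, edgeR adjusted p = 0.0442). KIF23, the kinesin of centralspindlin, had 101 and 105 CPM in CASM34 libraries, against 114 and 109 CPM in p53WT libraries, and did not pass (-0.11, SE 0.05, edgeR adjusted p = 0.263). Genes of the contractile ring and RhoA numbered 21, with a median of -0.04, or -0.07 with the offset. None fell by edgeR, where 6 had an unadjusted p under 0.05 and lay below 0, and 1 rose. That gene was RHOB, which encodes a RhoA relative of endosomes, with 78.9 and 78.6 CPM in CASM34 libraries and 60.2 and 66.0 CPM in p53WT libraries (0.32, SE 0.06, edgeR adjusted p = 0.0135). RHOA itself had 504 and 505 CPM in CASM34 libraries, against 513 and 521 CPM in p53WT libraries, and did not pass (-0.03, SE 0.04, edgeR adjusted p = 0.747). KIF23 and RHOA were singled out for their role, after their values were seen.

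Among 17 tested genes that recruit the passenger complex or work with it, 3 fell and the median was -0.12. BUB1, the kinase that writes the histone mark read by shugoshins at centromeres, had 184 and 177 CPM in CASM34 libraries, against 215 and 207 CPM in p53WT libraries (-0.22, SE 0.05, edgeR adjusted p = 0.0306). SGO2, a shugoshin that reads it, had 62.2 and 63.7 CPM in CASM34 libraries, against 75.2 and 72.1 CPM in p53WT libraries (-0.23, SE 0.05, edgeR adjusted p = 0.0440). KIF2C, a microtubule depolymerase that Aurora B phosphorylates, had 136 and 132 CPM in CASM34 libraries, against 157 and 152 CPM in p53WT libraries (-0.20, SE 0.05, edgeR adjusted p = 0.0430). HASPIN, which writes the mark that survivin reads, was singled out for that role. It had 23.1 and 21.9 CPM in CASM34 libraries, against 25.5 and 25.0 CPM in p53WT libraries, and did not pass (-0.16, SE 0.08, edgeR adjusted p = 0.320).

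None of 18 abscission and ESCRT genes passed by edgeR (3 had an unadjusted p under 0.05), and their median was -0.01, or -0.05 with the GC and length offset. Their most abundant members were CHMP1A, with 270.5 and 267 CPM in CASM34 and 247 and 266 CPM in p53WT, and IST1, with 166 and 155 CPM in CASM34 and 174 and 172 CPM in p53WT (edgeR adjusted p = 0.532 and 0.310). CHMP1A had a log2 fold change of 0.07, which turned to -0.11 when the GC and length offset was used. Survivin belongs to the inhibitor of apoptosis family, whose list here also held its antagonist DIABLO. None of the 6 tested genes of that list, DIABLO among them, passed by edgeR (1 had an unadjusted p under 0.05). Their median was -0.06, or -0.01 with the offset. The most abundant of these, BIRC3 and BIRC2, lay at -0.03 and -0.07 (edgeR adjusted p = 0.781 and 0.480).

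Of 18 other mitotic genes 3 fell, all 18 lay below 0 and the median was -0.17. With the GC and length offset all 18 again lay below 0 (8856 of all 15664 genes did), and the median was -0.11. CKAP2 and NUSAP1, genes of spindle microtubule proteins, lay at -0.24 and -0.23, and CDK1, the kinase of mitotic entry, at -0.23 (SE 0.05 each, edgeR adjusted p = 0.0207, 0.0249 and 0.0286). None of these 3 genes passed with the offset (edgeR adjusted p = 0.0913, 0.0762 and 0.203). Counts of NUSAP1 were fractional in all 4 libraries. None of 17 S phase genes passed by edgeR (6 had an unadjusted p under 0.05). Of these 17 genes 16 lay below 0, and their median was -0.09. With the GC and length offset all 17 lay below 0 and their median was -0.10, near that of the mitotic genes. Their most abundant members, the replicative helicase genes MCM7 and MCM4, lay at -0.07 and -0.14 (edgeR adjusted p = 0.453 and 0.137). Whether the lists differ from each other was not tested.

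None of 18 genes of the DREAM complex, MYBL2-MuvB, FOXM1 and NF-Y passed by edgeR (3 had an unadjusted p under 0.05), and their median was -0.07. FOXM1, a transcription factor for G2 and mitotic genes, had 465 and 445 CPM in CASM34 libraries, against 498 and 490.1 CPM in p53WT libraries (-0.12, SE 0.05, edgeR adjusted p = 0.208). MYBL2, which joins the MuvB core in S phase, had 314 and 283 CPM in CASM34 libraries, against 309 and 315 CPM in p53WT libraries (-0.06, SE 0.05, edgeR adjusted p = 0.594). With the GC and length offset these genes lay at -0.18 and -0.22 (edgeR adjusted p = 0.0485 and 0.0412), and counts of FOXM1 were fractional in all 4 libraries. By the same promoter search, a CHR was present in 7 of 11 central spindle and midbody genes and 10 of 16 other mitotic genes with a window. It was present in 1 of 15 abscission and ESCRT genes and 1 of 21 contractile ring and RhoA genes. The passenger recruitment and partner genes had it in 3 of 13, those of DREAM, MYBL2-MuvB, FOXM1 and NF-Y in 6 of 14, those of S phase in 2 of 14 and the inhibitor of apoptosis family in 0 of 6. These shares cover only genes with a window, and how they relate to the medians of the lists was not tested.

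**Figure D5:**
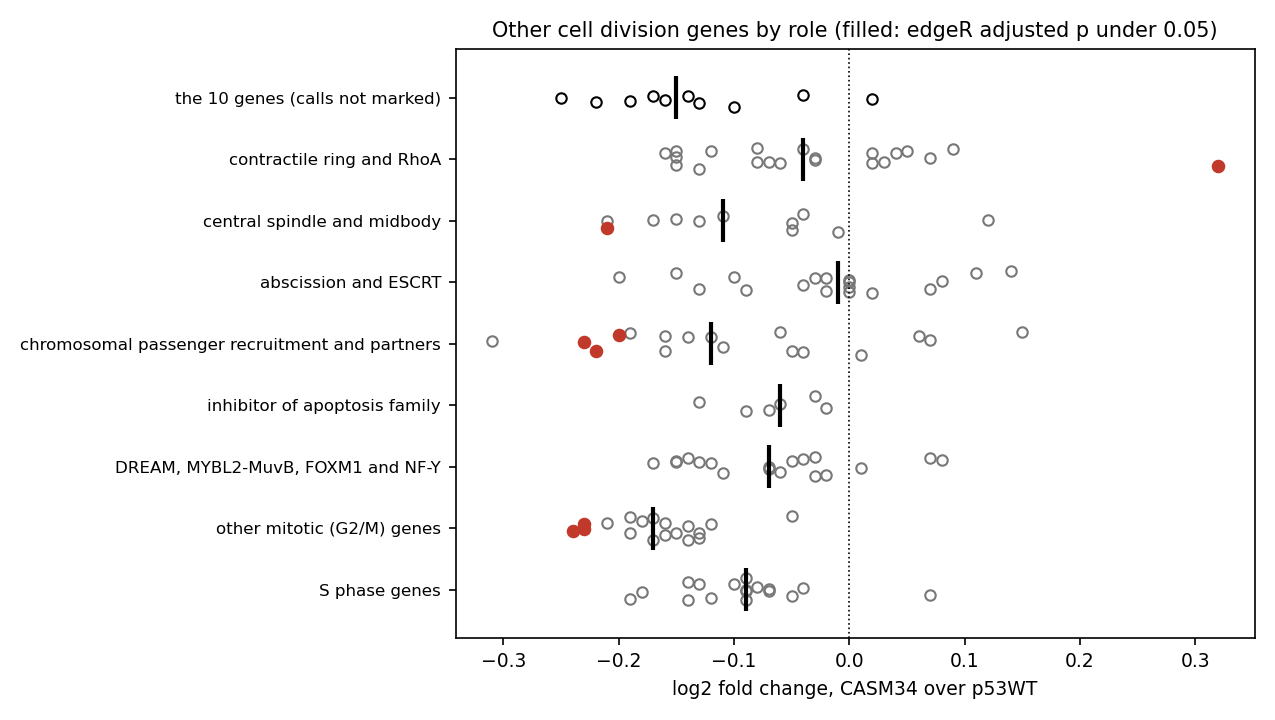
Log2 fold change (CASM34 over p53WT) of the 10 genes (black rings, calls not marked) and of the tested genes of 8 lists by role (grey rings), with filled red points for genes with an edgeR adjusted p under 0.05 and a bar at the median. The medians of the 10 genes and of the other mitotic genes lie at -0.15 and -0.17, and that of the abscission and ESCRT genes at -0.01; with the GC and length offset, not drawn, they were -0.12, -0.11 and -0.05.

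Calls among the 126 genes changed with the library left out, as did those among all genes tested (given below). Over the fits that left out 1 library, the 7 genes that fell lay between -0.28 (CDK1) and -0.17 (KIF4A). RHOB lay between 0.25 and 0.39. With the GC and length offset 5 of the 126 genes passed, where 90 genes in all did. Of the 8 genes called with all 4 libraries, KIF4A and KIF2C kept an adjusted p under 0.05 (edgeR adjusted p = 0.0496 and 0.0365). RHOB then lay at 0.21 (edgeR adjusted p = 0.0907).

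Of 9924 genes with a mean of at least 10 CPM, those whose 4 log2 levels lay closest to the mean profile of the 10 genes were ASNSD1, PSMD7, HSPA8, LSM8 and MAP3K7, at Euclidean distances from 0.00733 to 0.0111. The 10 genes themselves lay at 0.0275 (CDCA8) to 0.167 (INCENP) from that mean. HSPA8, a constitutive chaperone gene, had 3547 and 3458 CPM in CASM34 libraries, against 3836 and 3891 CPM in p53WT libraries, a log2 fold change of -0.14. Its counts were fractional in 3 of the 4 libraries. None of these 5 genes passed by edgeR with all 4 libraries and no covariate (adjusted p from 0.117 to 0.373). HSPA8 passed by DESeq2 (adjusted p = 0.00716) and by edgeR with the replicate block (adjusted p = 0.0342). The 5 genes were picked for their likeness to the 10 in these same libraries. Their direction was thus fixed by the choice, and these p-values support nothing.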

How the data were processed

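Poly(A) RNA of 4 H1299 libraries was sequenced. The submitters' processing notes name STAR, RSEM, Trim Galore and GRCh38. No tool version, annotation release or strandedness is given in the sources used here. Each deposited table has columns for expected count, TPM and effective length of each gene, per the file headers. FPKM was not used. The authors' expected counts were not whole for 8.63% to 9.26% of genes (tolerance 0.001) and were rounded. The authors' TPM values were used as given. By its definition TPM divides by transcript length and by the library's sum.

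Symbols were matched by gene ID for 61757 of 61852 genes, and coordinates and transcript GC content come from GENCODE 29. CASM34 was compared with p53WT by edgeR 4.0.16 (R 4.3.3), with its quasi-likelihood test on TMM-scaled counts after filterByExpr at a minimum count of 10 and with no covariate. A call is a Benjamini-Hochberg adjusted p under 0.05 over 15965 genes. SE is |log2 fold change| over the root of F. P-values rest on the spread between libraries, and that may be technical. Counts of the 2 libraries of a group differed by more than Poisson error (chi-square per degree of freedom 3.94 in CASM34 and 3.90 in p53WT). The script was tested on simulated data.

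The genes, lists and tests were chosen with earlier results of these data known. Named besides the 10 genes were up to 3 passing genes per list, or the 2 most abundant where none passed, FOXM1, MYBL2 and 5 genes of like profile. The alternatives were other scalings and filters, DESeq2 1.42.0, limma 3.58.1 (voom, and log2(TPM + 1)), effective length and GC offsets (natural splines, 5 degrees of freedom each), a replicate block, leaving out each library, and an adjusted p under 0.01.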

Additional observations from a re-analysis of the deposited data

How the results depend on the processing

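With all 4 libraries edgeR called 312 genes in all, 3 of the 10 genes and 8 of the 126 in the wider lists, and the median of the 10 genes was -0.15. Over the fits that left out 1 library these ranged from 109 to 919, from 0 to 3, from 0 to 14 and from -0.18 to -0.12. With library totals only, 225 genes in all (27 lower), 1 of the 10 and 5 of the wider genes were called. With no filter on low counts 777 genes in all and 20 wider genes were called, and DESeq2 called 213 genes in all and 13 wider genes. In limma on log2(TPM + 1) all 3 counts were 0, where 1820 genes, 5 of the 10 and 33 wider genes had an unadjusted p under 0.05. With the effective length offset in edgeR the counts were 3, 0 and 0, where 1901, 5 and 41 had one. With the GC and length offset 90 genes were called, 42 higher and 48 lower (257 and 55 without it), 5 wider genes passed and the median of the 10 was -0.12. At an adjusted p under 0.01 edgeR called 57, 0 and 0, where 2734, 8 and 48 had an unadjusted p under 0.05. With the replicate block 1159, 5 and 28 were called. Deviations of same-numbered libraries from their group means were hardly correlated (r = 0.0335 across 15965 genes). The labels give only a number, and whether same-numbered libraries share a batch cannot be told from this value. The cause of these shifts was not tested.

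Among named genes, the sign turned for CHMP1A (-0.11) and BIRC3 (0.05) with the GC and length offset, and for MYBL2 over the fits that left out 1 library (from -0.14 to 0.01); none of these values passed. INCENP lay between -0.12 and 0.08 and CIT reached 0.00, and the other 8 of the 10 genes lay below 0 in every setting tried. With 2 libraries a group, each library weighs heavily; where 1 is left out, the lone one is assumed to vary like the other group.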

Other observations

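The promoter letters were also set beside the fold changes of all tested genes with a RefSeq window, leaving out the 10 genes. The 725 genes with both a CHR and a CCAAT box had a median log2 fold change of -0.04, and 6 of them (0.828%) fell and 4 (0.552%) rose in CASM34 by edgeR at an adjusted p under 0.05. The 795 genes with a CHR and no CCAAT box had a median of -0.02, and 4 (0.503%) fell and 5 (0.629%) rose. The 9704 genes without a CHR had a median of 0.00, and 21 (0.216%) fell and 172 (1.77%) rose. Genes of the lists by role are among them. These sets also differed in the median GC content of their transcripts, at 45.7%, 46.8% and 49.7%, and its part in these values was not tested; nor was the difference between the sets.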
